A study of Mus musculus with 30 samples.

Results

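The change with genotype that neutrophils, macrophages and microglia had in common was estimated over all 30 arrays of the series, 17 labelled TREM1 knockout (KO) and 13 labelled wild type (WT). Arrays were taken by the genotype in their titles and none was chosen by a measured value. Every one of the 22103 transcript clusters on the array, each a probe set for 1 transcript region, was fitted with genotype and cell type as additive terms, so that 1 difference, KO minus WT, was estimated for the 3 cell types together. A shared change was one that passed this fit and had the same sign in each of the 3 cell types.

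The KO mice were TREM1-/- and the WT mice TREM1+/+, all of them male C57BL/6 animals of 8 to 10 weeks. In every mouse the middle cerebral artery was closed for 45 min and reopened, a model of ischemic stroke, and cells of the ischemic hemisphere were sorted 48 h later. The groups held 5 KO and 4 WT neutrophil arrays, 6 KO and 3 WT macrophage arrays, and 6 KO and 6 WT microglia arrays. By the labels, neutrophils were the CD45 high, CD11b+ and Ly6G+ cells, macrophages the CD45 high, CD11b+ and Ly6G- cells, and microglia the CD45 low, CD11b+ cells, for which the labels also write Ly6G+. All groups share the occlusion, so the differences below are between injured brains. Which stretch of Trem1 is missing, which mice gave several cell types and whether mice were pooled are not given in the sources used here.

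TREM1 is a receptor on the surface of neutrophils and monocytes. It has no signalling tail of its own and acts through the adaptor DAP12 (Tyrobp), whose tyrosine motif recruits the kinase SYK. Together with Toll-like receptors it amplifies the activation of NF-kB and the output of inflammatory cytokines.

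S100a8, Ccr2 and P2ry12 were each highest on the arrays labelled with their cell type, but markers of other cells were read as well. S100a8, a calcium-binding protein of neutrophils, ranged from 17.12 to 18.32 (log2 intensity) on the neutrophil arrays, from 6.73 to 12.66 on the macrophage arrays and from 3.89 to 12.04 on the microglia arrays. Ccr2, the chemokine receptor of recruited monocytes, ranged from 14.66 to 15.93 on the macrophage arrays, while P2ry12, a purine receptor of microglia, was highest on the microglia arrays at 15.21 to 16.53. P2ry12 also read 11.78 to 13.88 on the neutrophil arrays, and Ly6g, the marker of the gate, was not among the named clusters. The summed intensity of 19 neutrophil markers was 600 to 1270 on KO neutrophil arrays and 1300 to 2210 on WT neutrophil arrays, in units of 1000, without overlap. For 16 monocyte and macrophage markers it was 263 to 485 on KO and 187 to 210 on WT neutrophil arrays, and for 17 microglia markers 200 to 283 on KO and 296 to 371 on WT neutrophil arrays. In macrophages and in microglia the KO and WT ranges of these 3 sums overlapped. Marker content and genotype therefore moved together in neutrophils, and the part of marker content in the neutrophil differences below was not tested. The sum of 12 endothelial markers was 168 to 220 on KO and 139 to 274 on WT neutrophil arrays. On macrophage arrays it was 105 to 133 in KO and 97 to 160 in WT. For 18 cartilage and bone markers the sum was 2.36 to 3.7 on KO and 1.29 to 1.61 on WT macrophage arrays, without overlap. It reached 62.3 on a WT neutrophil array, where the group median was 4. Median intensity per array ranged from 89.3 to 97.9 in KO and from 97.7 to 108 in WT neutrophils, from 85.1 to 91.1 in KO and from 83.7 to 86.0 in WT macrophages, and from 110 to 116 in KO and from 107 to 120 in WT microglia.

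Trem1, the targeted gene, was lower on KO arrays in all 3 cell types but did not pass the test over them. Its log2 intensity on the KO neutrophil arrays was 15.12, 16.39, 16.15, 16.31 and 15.93, against 17.20, 17.51, 17.27 and 16.82 on the WT neutrophil arrays, and the groups did not overlap. In macrophages the 6 KO arrays ran from 12.81 through a median of 13.37 to 14.39, and the WT arrays read 14.11, 14.19 and 13.59. In microglia KO arrays ran from 7.50 through 8.30 to 9.21, and WT arrays from 7.62 through 9.91 to 10.44. KO and WT arrays overlapped in both of these cell types, and in microglia a single WT array, replicate 1, lay among the KO arrays. Over the 3 cell types Trem1 differed by -1.03 on the log2 scale (SE 0.23, 95% interval -1.50 to -0.56), a 2.04-fold lower level, with an adjusted p of 0.0856 in limma. The difference was -1.22 in neutrophils, -0.49 in macrophages and -1.25 in microglia, and the test for unequal change between cell types gave an adjusted p of 0.608. Trem1 passed when WT macrophage 3 was left out (-1.11, adjusted p = 0.0416) or WT microglia 1 (-1.18, 0.0143), and when the mean of the 3 within-cell-type differences was tested in the model with 1 mean per group (-0.99, 0.0171). That model changes both the weight of each cell type and the residual variance. KO neutrophils still read far above WT microglia. Since the deleted part of the gene and the places of the probes in it are not given in the sources used here, the level of Trem1 does not check the genotype labels. In sorted bulk samples, fewer cells of a type and less RNA per cell cannot be told apart.

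**Figure D1:**
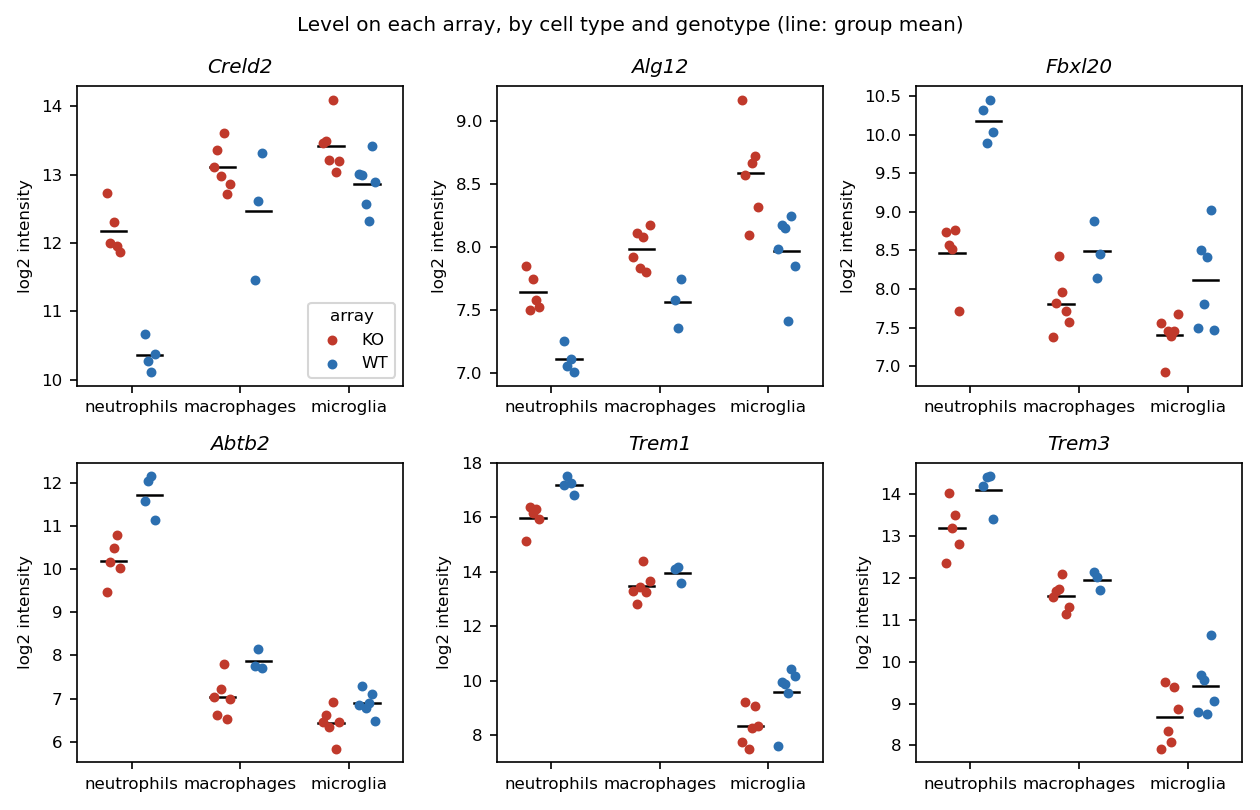
Log2 intensity (y axis) of 6 genes on each array, with KO (red) left of WT (blue) in each cell type (x axis) and a line at each group mean. On average Creld2 and Alg12 are higher on KO arrays in all 3 cell types, and Fbxl20, Abtb2, Trem1 and its neighbour Trem3 are lower. KO and WT arrays overlap in macrophages and microglia for Creld2, Fbxl20, Abtb2 and Trem1. They overlap in microglia alone for Alg12 and in all 3 cell types for Trem3.

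The additive fit called few genes. Of the 22103 clusters, 4 had an adjusted p (Benjamini-Hochberg) under 0.05, 2 of them higher (0.00905%) and 2 lower (0.00905%) on KO arrays. Creld2 and Alg12 rose, Fbxl20 and Abtb2 fell, and each of the 4 had the same sign in all 3 cell types (0.0181% of clusters). At an unadjusted p under 0.05 there were 2975 clusters (13.5%), 1693 higher and 1282 lower, and 2016 of these (9.12%) had the same sign in all 3 cell types, 1058 higher (4.79%) and 958 lower (4.33%). Signs alone matched in 5267 clusters (23.8%), of which 2294 were higher and 2973 lower on KO arrays. The count depends on the model: in the model with 1 mean per group, which takes unequal changes out of the residual variance, the mean of the 3 within-cell-type differences passed in 702 clusters, 488 of them with the same sign in all 3 cell types and the 4 genes among them. In the additive fit, leaving out 1 array gave 0 to 47 calls.

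Across clusters, the differences in the 3 cell types had little relation to each other. Pearson's r over 22103 clusters was -0.10 between neutrophils and macrophages, 0.10 between neutrophils and microglia and 0.06 between macrophages and microglia, and the sign matched in 43.5%, 53.4% and 50.8% of clusters. Among the 11052 brighter clusters r was -0.05, 0.12 and 0.11. These clusters share their arrays within a cell type and are not independent, so the values are a description. The median absolute difference was 0.33 in neutrophils, 0.16 in macrophages and 0.12 in microglia.

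**Figure D2:**
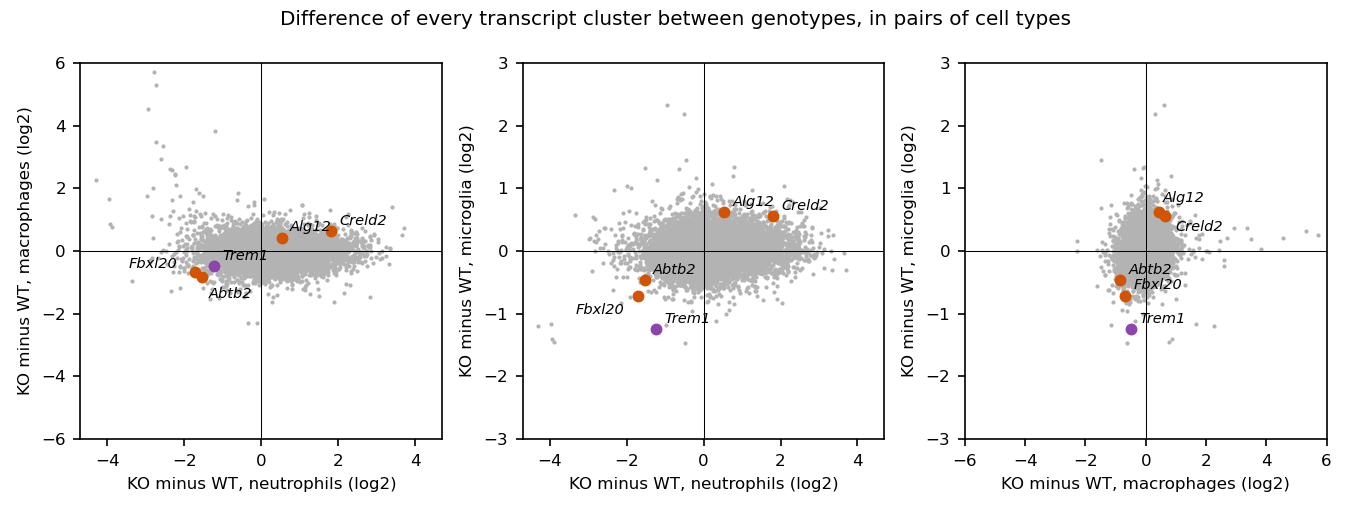
KO minus WT (log2) of every transcript cluster in neutrophils against macrophages (left), neutrophils against microglia (middle) and macrophages against microglia (right). Grey points are clusters, orange points the 4 that passed over the 3 cell types and the purple point Trem1; the cloud has little slope (r of -0.10, 0.10 and 0.06), and the 5 named genes lie in the quadrants of equal sign.

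Creld2 and Alg12, the pair that rose, are neighbours. Creld2 encodes a secreted and endoplasmic reticulum (ER) protein that is induced when unfolded proteins accumulate in the ER, and Alg12 encodes an ER mannosyltransferase that builds the sugar chain attached to newly made glycoproteins. In the RefSeq annotation of GRCm38.p6 they lie head to head on chromosome 15, on opposite strands, with their starts 328 bases apart. Their promoter windows, 250 bases before to 50 after each start, overlap by 173 bases. Both windows are shown because they share 1 copy of the ER stress response element, CCAAT and CCACG with any 9 bases between, which is bound in mammalian cells by NF-Y and ATF6; the capitals mark its 2 fixed ends. The Creld2 window is chr15:88819396-88819695 on the plus strand, where the element reads on the reverse strand, and the Alg12 window is chr15:88819269-88819568 on the minus strand.
Creld2: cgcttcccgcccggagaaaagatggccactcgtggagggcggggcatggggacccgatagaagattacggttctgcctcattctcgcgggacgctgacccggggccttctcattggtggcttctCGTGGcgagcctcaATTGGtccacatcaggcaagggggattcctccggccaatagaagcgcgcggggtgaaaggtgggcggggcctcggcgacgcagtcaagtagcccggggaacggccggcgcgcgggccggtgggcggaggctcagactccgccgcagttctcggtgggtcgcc
Alg12: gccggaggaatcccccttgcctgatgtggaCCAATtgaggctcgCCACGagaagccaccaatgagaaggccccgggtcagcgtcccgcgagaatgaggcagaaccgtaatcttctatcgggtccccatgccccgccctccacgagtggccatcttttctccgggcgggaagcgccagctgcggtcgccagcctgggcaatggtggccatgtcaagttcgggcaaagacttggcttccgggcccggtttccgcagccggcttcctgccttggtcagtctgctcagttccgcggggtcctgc

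This element is rare in the windows of that length. It was searched on both strands and occurs in 39 of 32851 RefSeq promoter windows (0.119%), of 37 genes. Of 16 measured genes of an unfolded protein response list with a window, 5 hold it (31.2%), namely Hspa5, Hsp90b1, Dnajc3, Pdia6 and Calr. The windows of Fbxl20, Abtb2 and Trem1 do not. Of the 28 clusters measured for genes with the element, 13 had a higher level on KO arrays in all 3 cell types, Creld2 and Alg12 counted, and 4 a lower one, with a median difference of 0.07, beside 10.4% higher and 13.5% lower and a median of -0.03 over all clusters. The 13 also held Esp15, Esp16 and Esp36, which are not on the unfolded protein response list, at 0.23, 0.14 and 0.36. A match of letters is not evidence of binding, and the motif was chosen after the 4 genes were known.
The shared site and those of 3 list members, each from the strand on which the element reads forward, are
Creld2 and Alg12: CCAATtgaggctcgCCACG
Hspa5: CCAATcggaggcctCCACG
Pdia6: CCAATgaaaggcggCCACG
Calr: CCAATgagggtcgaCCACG

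Creld2 was higher on KO arrays in all 3 cell types, most of all in neutrophils. The KO neutrophil arrays read 12.73, 12.003, 12.31, 11.96 and 11.87, and the WT neutrophil arrays 10.66, 10.27, 10.11 and 10.38, with no overlap. In macrophages KO arrays ran from 12.72 through a median of 13.04 to 13.61 and WT arrays read 11.46, 12.62 and 13.32. The WT macrophage arrays were widely spread, and 1 of them lay inside the KO range. In microglia KO arrays ran from 13.03 through 13.34 to 14.10 and WT arrays from 12.32 through 12.94 to 13.42, again with overlap. Over the 3 cell types Creld2 rose by 0.97 (SE 0.18, 95% interval 0.60 to 1.34, adjusted p = 0.0481 in limma), 1.96-fold. The difference was 1.82 (SE 0.28) in neutrophils, 0.64 (SE 0.29) in macrophages and 0.55 (SE 0.24) in microglia, and every KO array, 5, 6 and 6, lay above the WT mean of its cell type. The test for unequal change between cell types gave an adjusted p of 0.0596. Without the neutrophil arrays the difference was 0.59 and did not pass (adjusted p = 0.947).

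Alg12 changed by a similar amount in each cell type. The KO neutrophil arrays read 7.85, 7.50, 7.75, 7.58 and 7.52, against 7.26, 7.05, 7.11 and 7.004 on the WT neutrophil arrays. In macrophages KO arrays ran from 7.80 through 8.00 to 8.18 and WT arrays read 7.58, 7.36 and 7.75. KO and WT arrays did not overlap in either of these cell types. In microglia KO arrays ran from 8.10 through 8.62 to 9.17 and WT arrays from 7.41 through 8.07 to 8.25, and KO microglia 3 was the 1 KO array below the highest WT array. Alg12 rose by 0.54 over the 3 cell types (SE 0.10, 95% interval 0.34 to 0.74, adjusted p = 0.0357 in limma), 1.45-fold. Its difference was 0.53 in neutrophils, 0.43 in macrophages and 0.62 in microglia, and the test for unequal change gave an adjusted p of 0.846. It was 0.54 without the neutrophil arrays, as large as with them, although it no longer passed (adjusted p = 0.826).

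Fbxl20 encodes an F-box protein, the part of an SCF ubiquitin ligase that recognises the substrate, and it had the smallest p of all clusters. The KO neutrophil arrays read 8.74, 8.57, 8.52, 8.77 and 7.71, and the WT neutrophil arrays 10.32, 9.89, 10.45 and 10.04, well apart. In macrophages KO arrays ran from 7.38 through 7.76 to 8.43 and WT arrays read 8.88, 8.14 and 8.45. In microglia KO arrays ran from 6.92 through 7.45 to 7.68 and WT arrays from 7.47 through 8.11 to 9.02. Arrays overlapped in both of these cell types, yet every KO array lay below the WT mean. Fbxl20 fell by 1.01 over the 3 cell types (SE 0.17, 95% interval -1.35 to -0.67, adjusted p = 0.0299 in limma), a 2.01-fold lower level. The difference was -1.71 in neutrophils, -0.68 in macrophages and -0.71 in microglia (adjusted p of unequal change 0.121), and -0.70 without the neutrophil arrays (adjusted p = 0.826).

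Abtb2, which encodes a protein with ankyrin repeats and a BTB domain, also differed most in neutrophils. The KO neutrophil arrays read 9.47, 10.15, 10.49, 10.79 and 10.03, below all WT neutrophil arrays at 11.56, 12.03, 12.15 and 11.14. In macrophages KO arrays ran from 6.53 through 7.02 to 7.79 and WT arrays read 7.76, 8.15 and 7.72, so that KO macrophage 4 alone reached the WT range. In microglia KO arrays ran from 5.84 through 6.46 to 6.91 and WT arrays from 6.47 through 6.87 to 7.30. Abtb2 fell by 0.90 over the 3 cell types (SE 0.16, 95% interval -1.23 to -0.57, adjusted p = 0.0357 in limma), a 1.86-fold lower level. The difference was -1.53 in neutrophils, -0.84 in macrophages and -0.46 in microglia (adjusted p of unequal change 0.121), and -0.61 without the neutrophil arrays (adjusted p = 0.826).

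The signs of these 4 differences over the 3 cell types held with any array left out, but their calls did not. With 1 array left out in turn, Fbxl20 passed in 22 of 30 fits, Alg12 and Abtb2 in 21 each and Creld2 in 15. None of the 4 passed without any 1 of WT neutrophils 1, 2, 3 and 4, of KO neutrophils 1, 2 and 3, or without WT macrophage 1, where no cluster passed. Without WT macrophage 3, 47 clusters passed, the 4 among them. Leaving out any 1 of the 3 cell types ended all 4 calls, and so did weighting the arrays by their quality (adjusted p of 0.0840 for Fbxl20, Alg12 and Abtb2 and 0.164 for Creld2). With each array centred on its median, Creld2 (adjusted p = 0.0686) and Abtb2 (adjusted p = 0.0540) no longer passed. With the level of broadly expressed clusters on each array as a covariate, the differences were 0.67 for Creld2, 0.49 for Alg12, -0.94 for Fbxl20 and -0.85 for Abtb2, and none passed.

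**Figure D3:**
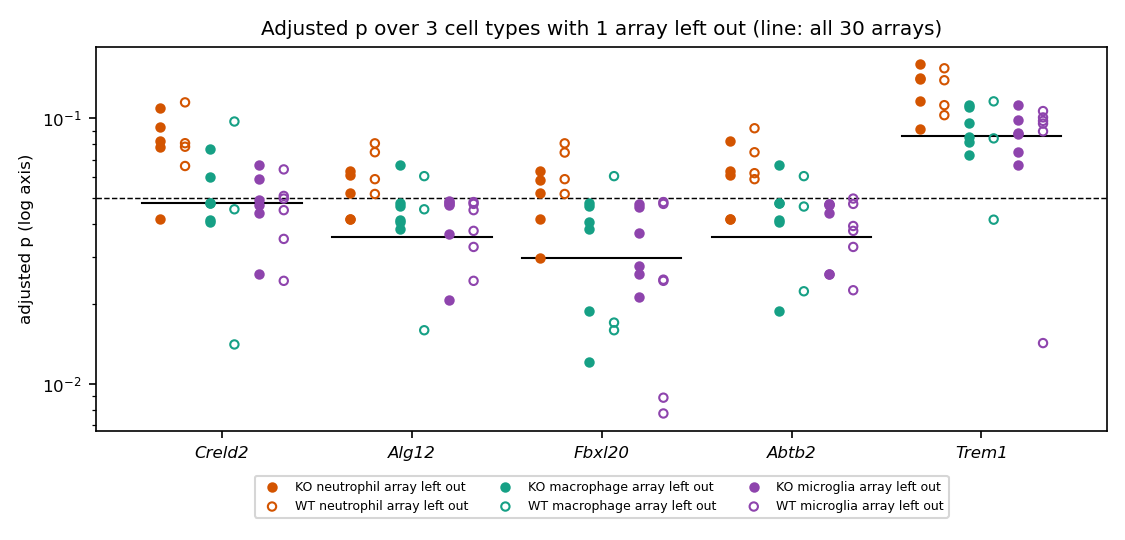
Adjusted p (log axis) of the change over 3 cell types for 5 genes when 1 array was left out, by the group of that array (KO filled, WT open), with the value from all 30 arrays as a line and 0.05 dashed. For the 4 called genes the points above 0.05 are mostly fits without a neutrophil array, and for Trem1 only 2 of 30 fits fall below it.

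No cluster kept KO and WT arrays apart in all 3 cell types. The arrays did not overlap for 2516 clusters in neutrophils (11.4%), 646 in macrophages (2.92%) and 24 in microglia (0.109%). In 22 clusters (0.0995%) they did not overlap, in 1 direction, in 2 cell types, and for each of these the 2 were neutrophils and macrophages. Alg12 and Pgam1, a glycolytic mutase, were among them. Pgam1 had a difference of 0.69 over the 3 cell types (SE 0.15, adjusted p = 0.0675), with 1.34 in neutrophils, 0.40 in macrophages and 0.41 in microglia.

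Calr, which encodes the ER chaperone calreticulin, was the cluster just past the threshold, at an adjusted p of 0.0531 beside 0.0481 for Creld2. The KO neutrophil arrays read 13.88, 12.999, 13.54, 13.57 and 12.66 for Calr, against 11.60, 11.28, 11.07 and 11.73 on the WT neutrophil arrays. In macrophages KO arrays ran from 13.79 through 14.16 to 14.37 and WT arrays read 12.74, 13.54 and 14.14, and in microglia KO arrays ran from 14.30 through 14.42 to 14.70 and WT arrays from 13.71 through 14.01 to 14.66. Only the neutrophil arrays were free of overlap. Its difference of 0.92 (SE 0.18) was made up of 1.91 in neutrophils, 0.63 in macrophages and 0.37 in microglia, which differed from each other (adjusted p of unequal change 0.00663). Calr passed in 11 of 30 fits with 1 array left out.

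An unadjusted p under 0.05 was reached by 34.5% of clusters in neutrophils, 4.66% in macrophages and 2.92% in microglia, and in each of the 3 with 1 sign by 8 clusters (0.0362%). They were the 4 called genes, Sema6b, Htr2a and a pair of clusters with clone names. Sema6b, a transmembrane semaphorin, differed by -0.76 (SE 0.15, adjusted p = 0.0651), with -1.32 in neutrophils, -0.57 in macrophages and -0.46 in microglia. Htr2a, a serotonin receptor, differed by -0.55 (SE 0.12, adjusted p = 0.0675), with -0.45, -0.85 and -0.42 in the same order. Htr2a was the member of this group with its largest difference in macrophages. Both were picked out after their values were seen.

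Gene lists for pathways and cell types were read by how many members moved the same way in every cell type. Of 39 lists with 572 measured genes in all, none held a cluster that passed over the 3 cell types, so each statement on a list is a description. Over all clusters the median difference was -0.03, 43.8% of differences were positive, 10.4% were higher and 13.5% lower in all 3 cell types, and at an unadjusted p under 0.05 they were 7.66% higher and 5.80% lower.

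Feedback regulators and targets of NF-kB, the transcription factor downstream of SYK and Toll-like receptors, lay lower on KO arrays in most cases. Of 22 measured genes, 19 had a negative difference and 16 were lower in all 3 cell types, while 0 were higher in all 3. The median was -0.30 over the 3 cell types, and it was -0.51 in neutrophils, -0.20 in macrophages and -0.24 in microglia. No gene of the list passed, and 6 were lower and 0 higher at an unadjusted p under 0.05. Traf1, a signalling adaptor of TNF receptors, differed by -0.71 (SE 0.23, adjusted p = 0.171). On its KO neutrophil arrays it read 7.97, 10.18, 9.25, 9.55 and 8.72, against 9.12, 10.90, 10.51 and 10.25 on the WT neutrophil arrays, so the groups overlapped. Bcl3, a nuclear regulator of NF-kB, differed by -0.58 (adjusted p = 0.191), Cflar, an inhibitor of caspase-8, by -0.55 (adjusted p = 0.211) and Nfkbiz, a nuclear inhibitor protein that directs NF-kB to secondary targets, by -0.70 (adjusted p = 0.252).

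The count of negative differences for NF-kB depended little on single arrays, and the count lower in all 3 cell types somewhat more. With 1 array left out, 19 to 21 genes were negative and the median stayed between -0.34 and -0.24. In these fits 13 to 17 genes were lower in all 3 cell types, and with array weights 13 were. Without the neutrophil arrays 19 of 22 genes were negative with a median of -0.24, without the macrophage arrays 19 with -0.30, and without the microglia arrays 20 with -0.33. The median was also negative with quantile normalization over all arrays (-0.32) and with each array centred on its median (-0.28). The 3 members with a positive difference were Relb, Ptgs2 and Birc3, at 0.04, 0.05 and 0.13. Tnfaip3 and Nfkbia, the main feedback inhibitors, which were picked out after their values were seen, differed by -0.85 (adjusted p = 0.274) and -0.40 (adjusted p = 0.336).

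In the unfolded protein response list, the genes higher on KO arrays in every cell type were ER chaperones and their helpers. Of 17 measured genes, 9 had a positive and 8 a negative difference, 6 were higher and 3 lower in all 3 cell types, and 5 were higher and 0 lower at an unadjusted p under 0.05. The median of the list was 0.02, and it turned to -0.01 after either quantile normalization and to -0.07 without the microglia arrays. The 6 genes higher in all 3 cell types were Calr, Sdf2l1, Pdia6, Hsp90b1, Hspa5 and Dnajc3, all of which encode chaperones, folding enzymes or their helpers in the ER. Sdf2l1, a chaperone partner in the ER, differed by 0.83 (SE 0.19, adjusted p = 0.0856), Pdia6, a disulfide isomerase, by 1.01 (SE 0.31, 0.162) and Hsp90b1 by 0.60 (SE 0.19, 0.173). Their differences were 1.56, 2.60 and 1.68 in neutrophils, 0.60, 0.40 and 0.17 in macrophages and 0.43, 0.24 and 0.09 in microglia, unequal for Pdia6 (adjusted p = 0.0287) and Hsp90b1 (adjusted p = 0.00995). The 3 genes lower in all 3 cell types were the transcription factors Atf4 and Atf6 and the pseudokinase Trib3, with differences of -0.20, -0.11 and -0.17.

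The type I interferon response genes lay slightly higher on KO arrays, most of all in microglia. Of 24 measured genes, 19 had a positive difference, 8 were higher and 1 lower in all 3 cell types, and 3 were higher and 0 lower at an unadjusted p under 0.05. The median was 0.17 over the 3 cell types, and it was 0.09 in neutrophils, 0.14 in macrophages and 0.33 in microglia. Oas1a, a sensor of double-stranded RNA, differed by 0.49 (SE 0.16, adjusted p = 0.186), Usp18, a brake on the interferon receptor, by 0.53 (SE 0.23, 0.319) and Ifit1 by 0.38 (SE 0.15, 0.280). Usp18 had 0.54, 0.67 and 0.43 in neutrophils, macrophages and microglia, and Ifit1 had 0.33, 0.44 and 0.37. With 1 array left out the list median stayed between 0.11 and 0.24. It was 0.28 without the neutrophil arrays and 0.20 without the macrophage arrays. Without the microglia arrays it was 0.08, with 15 genes positive and 9 negative.

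**Figure D4:**
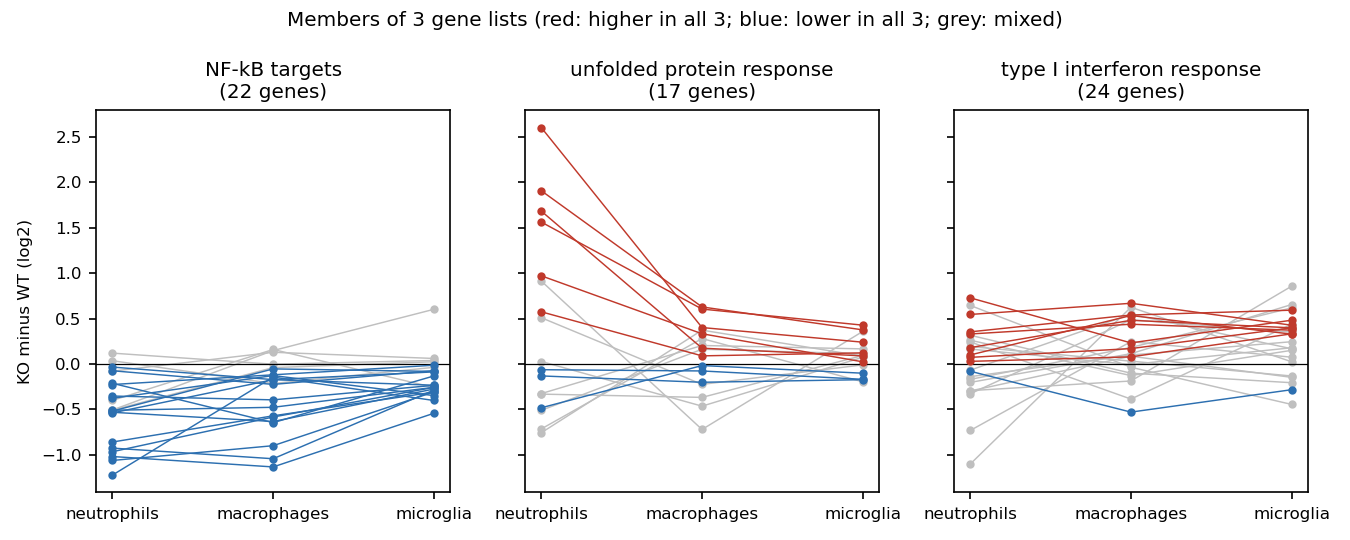
KO minus WT (log2, y axis) of each measured member of 3 lists in neutrophils, macrophages and microglia (x axis); each line is 1 gene, red where it was higher in all 3 cell types, blue where lower in all 3 and grey otherwise. In the NF-kB list 16 of 22 lines are blue, the red lines of the unfolded protein response list are steep in neutrophils, and the interferon lines lie mostly above 0.

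Stress and glycolysis genes were mixed in sign, and none passed. Hsph1, a nucleotide exchange factor for Hsp70, differed by 1.29 (SE 0.26, adjusted p = 0.0651), with 2.21 in neutrophils, 1.08 in macrophages and 0.74 in microglia. Among 22 immediate early and stress genes, 16 had a negative difference, 3 were higher and 6 lower in all 3 cell types, and Egr2, an immediate early transcription factor, had -0.67 (adjusted p = 0.171). Of 19 glycolysis and hypoxia genes, 13 had a positive difference, 7 were higher and 2 lower in all 3 cell types, and Hk1, a hexokinase, had 0.97 (SE 0.28, adjusted p = 0.143) with 1.42, 1.12 and 0.54 in neutrophils, macrophages and microglia.

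Other lists were nearly uniform in the additive estimate but not across cell types. Of 27 oxidative phosphorylation genes, 26 had a positive difference with a median of 0.25, yet 8 were higher and 1 lower in all 3 cell types. With the covariate for broadly expressed clusters 18 were positive and the median was 0.05. Of 15 cytosolic ribosomal protein genes, 14 were positive with a median of 0.25, and 0 had the same sign in all 3. Their median was 0.87 in neutrophils, -0.10 in macrophages and 0.06 in microglia. In the same way 16 of 18 genes of phagocytosis and lipid handling were positive, 2 were higher and 0 lower in all 3 cell types, and Apoe, the lipid carrier, had 2.46 in neutrophils, 0.23 in macrophages and 0.17 in microglia. The marker sums of the neutrophil arrays given above also differed between KO and WT, and their part in these lists was not tested. The Trem receptor family had 5 of 12 genes lower in all 3 cell types, the targeted gene Trem1 counted, and 2 higher. The 19 genes of TREM1 and ITAM signalling had 7 lower and 3 higher in all 3, with a median of -0.11. At an unadjusted p under 0.05, 2 of these 19 were higher and 4 lower. Of the signalling genes, Lat2 had the smallest p and was higher on KO arrays, by 1.75 in neutrophils, 0.21 in macrophages and 0.09 in microglia. Syk, the kinase itself, had -0.84, 0.04 and -0.42 in the same order.

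The change with genotype was unequal between cell types in 1226 clusters (5.55%), and none of the 4 called genes was among them. This test uses the model with 1 mean per group, in which 702 clusters passed for the mean change, so its count is not set against the 4 calls of the additive fit. In 1169 of the 1226 the largest absolute difference was in neutrophils, in 53 it was in macrophages and in 4 in microglia, and 203 had the same sign in all 3. Taken in pairs, neutrophils and macrophages differed in their change in 1518 clusters (6.87%) and neutrophils and microglia in 1280 (5.79%), while between macrophages and microglia limma called 0, with 761 at an unadjusted p under 0.05. Within 1 cell type, 4390 clusters passed in neutrophils (19.9%), 1 in macrophages (0.00452%) and 0 in microglia (646 at an unadjusted p under 0.05). The count of unequal changes fell to 30 with the covariate for broadly expressed clusters and to 0 without the neutrophil arrays. This level itself moved with genotype in neutrophils, where it was 12.85 to 13.21 on KO and 12.42 to 12.91 on WT arrays (log2 intensity), while on all macrophage and microglia arrays it was 13.26 to 13.49. The neutrophil arrays, those of WT most of all, thus stood apart, and the part of this in the neutrophil differences was not tested.

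Ifi30, a lysosomal thiol reductase used in antigen processing, had the smallest p for unequal change (adjusted p = 1.32e-05). It differed by 2.02 in neutrophils, 0.06 in macrophages and 0.10 in microglia. Dab2ip, a Ras GTPase-activating protein, had -1.70, 0.26 and 0.06 in the same order (adjusted p = 1.55e-05). Frmd4b had 2.38, -0.57 and -0.41, Rps6kc1 had 2.74, 0.01 and -0.16, and Anapc1, a subunit of the anaphase-promoting complex, had 2.89, -0.40 and -0.10. For all 5 the largest of the 3 differences was in neutrophils, where KO and WT arrays did not overlap.

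Chromosome 17, which carries Trem1, held no called cluster, and with all arrays its share of unadjusted differences was close to that of the rest. The 1069 clusters with identifiers of chromosome 17 included 0 calls, beside 4 of 21034 (0.0190%) elsewhere, and 963 of the 1069 had a symbol, each on chromosome 17 in RefSeq. At an unadjusted p under 0.05 there were 136 (12.7%, 95% interval 10.8% to 14.9% for counting error alone), against 13.5% of all other clusters. The same sign in all 3 cell types was found for 25.7% of chromosome 17 and 23.7% of other clusters, and both together for 9.35% and 9.11%. The median absolute difference was 0.12 in each set. By the unadjusted share chromosome 17 ranked 16 of 20 chromosomes with 400 or more clusters, which ranged from 10.9% to 16.4%. The difference in share between chromosome 17 and the rest was -0.78 percentage points, and its sign was not stable. It was 0.79 and 0.78 after quantile normalization over all arrays or by cell type, 0.22 with median centring and 0.68 with array weights. It was 0.08 without the macrophage arrays, 2.07 without the neutrophil arrays and 1.55 with the covariate for broadly expressed clusters. Without the microglia arrays it was -0.50, and with 1 cluster per gene -1.56. The 2.07 and 1.55 points stand on smaller bases, so they are larger relative to the share of all clusters. Clusters with an unadjusted p under 0.05 numbered 1115 of 22103 without the neutrophil arrays and 1473 with the covariate, against 2975 with all arrays.

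Close to Trem1, where other genes of its family lie, the family members Trem3 and Trem2 had an unadjusted p under 0.05, with opposite signs. Among the 20 measured genes within 10 places on either side, 4 had an unadjusted p under 0.05 (20.0%), 2 higher and 2 lower, and 7 had the same sign in all 3 cell types. The share was 14% within 25 places, 11% within 50 and 11.5% within 100. The 4 were Trem3, Trem2, Tomm6, which encodes a subunit of the mitochondrial import pore, and a clone-named gene. The family members Treml4, Treml2 and Treml1 are also among the 20 neighbours, with unadjusted p of 0.476, 0.421 and 0.0922 in limma. Trem3, the next gene and an activating receptor in mice, differed by -0.69 (SE 0.20, adjusted p = 0.143). Its KO neutrophil arrays read 12.37, 14.03, 13.21, 13.50 and 12.83, against 14.21, 14.41, 14.44 and 13.40 on the WT neutrophil arrays, which overlapped. Trem3 is also 1 of the 19 neutrophil markers, whose median difference in neutrophils was -1.01. Trem3 had -0.93 in neutrophils, -0.38 in macrophages and -0.73 in microglia. Trem2 had 3.03, 0.37 and 0.13, which were unequal (adjusted p = 0.000658). Tomm6 had 0.27 (SE 0.08, adjusted p = 0.146), with 0.33, 0.39 and 0.15. On the whole of chromosome 17 the smallest p after Sema6b and Trem1 was that of Haghl, at -0.75 (SE 0.17, adjusted p = 0.0856), with -0.34, -1.09 and -0.82.

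**Figure D5:**
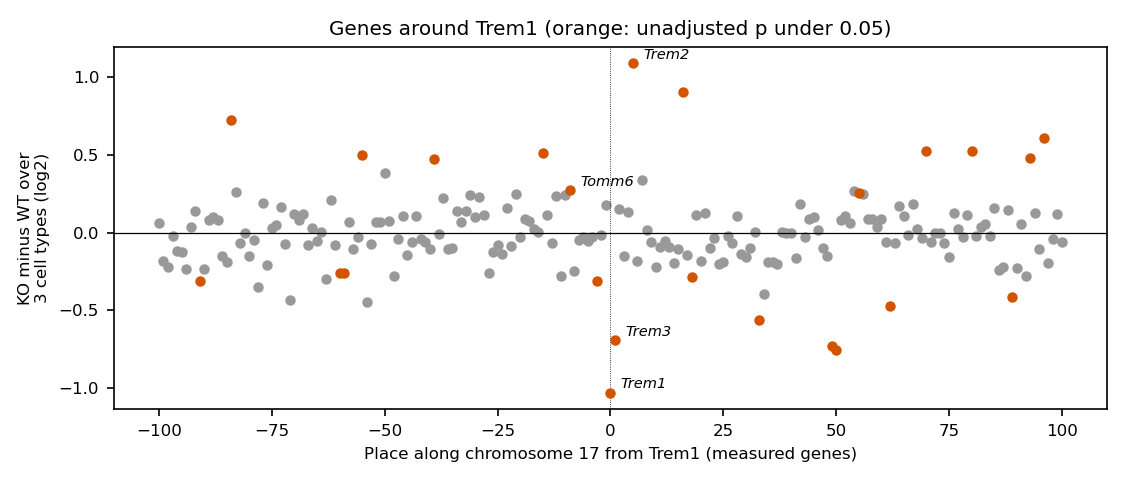
KO minus WT over 3 cell types (log2, y axis) of the 100 measured genes on either side of Trem1, in order along chromosome 17 (x axis, number of genes from Trem1). Orange points have an unadjusted p under 0.05; they make up 11.5% of the 200 neighbours and stand on both sides of 0.

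Trem3 was also the gene whose level was most like that of Trem1 over the 30 arrays after the mean of each cell type was removed (Pearson's r 0.81, and 0.71 after the mean of each group was removed). The next were Cd244a, a receptor of NK cells and some myeloid cells, at 0.76 and 0.77, Zyx, an adaptor of focal adhesions, at 0.74 and 0.63, Ccr1, a chemokine receptor, at 0.72 and 0.63, and Ncf4, a subunit of the phagocyte NADPH oxidase, at 0.71 and 0.68. These genes were chosen for their likeness over all clusters, so the values are a description. Their differences with genotype were -0.31 for Cd244a, -0.44 for Zyx, -0.49 for Ccr1 and -0.24 for Ncf4, and none passed.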

How the data were processed

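Intensities were deposited by the authors for sorted neutrophils, macrophages and microglia on Affymetrix Clariom HT mouse arrays, and were made with RMA per the submitters' processing notes; its version and the arrays normalized together are not given in the sources used here. RMA corrects background, makes array distributions alike and summarises probes, so a general shift between arrays normalized together can be removed. The deposited arrays still differed in level, with median intensities from 83.7 on a WT macrophage array to 120 on a WT microglia array. Per the labels, RNA had an integrity number above 7.5. The linear intensities ran from 5.62 to 438297 for 22103 clusters on 30 arrays, and their log2 was taken with no pseudocount or filter. Symbols came from the platform annotation (19508 clusters with 1 symbol, the other 2595 not listed in it) and were matched by gene number to RefSeq for GRCm38.p6, used for names, gene order and promoter sequences. The build of the array design is not given in the sources used here.

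Genotype plus cell type was fitted with limma 3.58.1 in R 4.3.3 (lmFit and eBayes, 26 residual degrees of freedom), with moderated tests and Benjamini-Hochberg adjustment over all clusters, and a threshold of 0.05. Differences within cell types, their unequal change (moderated F test) and array overlap came from a model with 1 mean per group (24 residual degrees of freedom). Levels are log2 intensities. The labels call arrays biological replicates; the number of arrays limits the precision. The members and gene lists were chosen with earlier results of these data known. Genes named were Trem1, called genes of 1 sign in all cell types at or above the median level of clusters, up to 4 members of a list with the smallest p, 10 genes on each side of Trem1, the 5 genes of smallest p for unequal change, the 5 most like Trem1, and the others said to be picked after their values were seen. Clusters named for clones were counted and not named.

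The other settings were quantile normalization and median centring, weights for arrays, a robust prior with a variance trend, a filter that removed the dimmest 25% of clusters, a single cluster for each gene, the mean of the 3 within-cell-type differences in the model with 1 mean per group, replicate number as a fixed or random block, a covariate (median level of 2015 clusters bright on every macrophage and microglia array and alike in WT cells of both types), and leaving out each cell type and each array. Whether arrays of 1 replicate number share a mouse is not given in the sources used here. Simulated data with 50 changed clusters per size were put through the same fit: for KO against WT over 3 cell types, among 22103 clusters, it recovered 56% of changes of 0.5 log2, 92% of 1, 96% of 1.5 and 100% of 2, and 5.49% of 182 calls were on unchanged clusters. With that many calls and no unequal change planted, this checks the code and is no measure of power in the real data. Python 3.11.15 with matplotlib 3.10.9 made the figures.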

Additional observations from a re-analysis of the deposited data

Results flagged for a closer look

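Of 25 groups of arrays examined for the main genes, 2 held an array far from the others by Dixon's test, which marks about 1 group in 20 by chance. WT microglia 1 had a Trem1 log2 intensity of 7.62, with the next WT microglia array at 9.55. Without this array Trem1 passed over the 3 cell types. KO neutrophil 5 had an Fbxl20 log2 intensity of 7.71, with the next KO neutrophil array at 8.52, and Fbxl20 passed without it (-0.93, adjusted p = 0.0298).

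The genes with the smallest p for unequal change between cell types were Ifi30 (adjusted p = 1.32e-05), Dab2ip (1.55e-05), Frmd4b (3.96e-05), Rps6kc1 (0.000128) and Anapc1 (0.000128). In each of the 30 fits with 1 array left out, Anapc1 passed, with an adjusted p from 1.71e-05 to 0.000629.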

How the results depend on the processing

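The number of clusters called over the 3 cell types, 4, was 7 with quantile normalization over all arrays, 7 with it within cell types, 2 with each array centred on its median, 0 with array weights, 7 with a variance trend and a robust prior, 11 without the dimmest 25% of clusters, 5 with 1 cluster per gene, 20 with a random block and 0 with the broadly expressed level as a covariate or without any 1 cell type. All these calls had the same direction in the 3 cell types. Counts of 0 stood beside 1965 clusters at an unadjusted p under 0.05 with array weights, 1473 with the covariate, and 1115, 3746 and 3496 without neutrophils, macrophages or microglia. With the mean of the 3 within-cell-type differences, tested in the model with 1 mean per group (24 residual degrees of freedom, against 26), 702 were called, 488 of them in 1 direction, and 25 on chromosome 17, Trem1 among them (-0.99, adjusted p = 0.0171). This setting changes the weights and the residual variance together, and which of these moved the count was not tested. A minimum of 0.5 log2 in each cell type left 2. Leaving out 1 array gave 0 to 47 calls and 0 to 47 of 1 direction, 679 to 2326 unequal changes, 0 to 1 cluster with arrays apart in all 3 cell types, 0 to 2 calls on chromosome 17 and a difference in share between chromosome 17 and the rest from -0.68 to 1.14 percentage points (-0.78 with all arrays). Trem1 ran from -1.18 to -0.95. Unequal changes numbered 0 without neutrophils, 631 without microglia and 30 with the covariate, and 22 clusters had arrays apart in both cell types left without microglia. Chromosome 17 held 1 call, Sema6b, under both quantile settings, without the dimmest clusters and with the random block. Its share minus that of the rest was 2.07 points without neutrophils and 1.55 with the covariate. With replicate number as a fixed block, 0 clusters were called (3007 at an unadjusted p under 0.05), the 4 genes had adjusted p of 0.102 to 0.111 and Trem1 was -1.13. Deviations of same-numbered arrays correlated at -0.20 to 0.26 for KO and WT of 1 cell type. For 2 cell types of 1 genotype they correlated at -0.16 to 0.16. These values cannot decide whether arrays of 1 number came from 1 mouse, since different cell types of a mouse need not deviate alike. Trem1, Creld2, Alg12, Fbxl20 and Abtb2 kept their direction under all 14 settings and 30 leave-outs. Signal over background per array is not given in the files, so the limit it sets for dim clusters is unknown.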

Other observations

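Inflammatory genes outside the NF-kB list had differences in both directions, more of them negative, and none passed. Differences were negative for 14 of 19 cytokine genes (median -0.08) and for 15 of 22 chemokine genes (median -0.11). Of 19 inflammatory cytokine genes 1 was higher and 5 were lower on KO arrays in all 3 cell types, and of 22 chemokine genes 3 were higher and 4 lower. Ccl8, a chemokine that attracts monocytes, differed by 0.93 (SE 0.34, adjusted p = 0.226), with 1.05 in neutrophils, 1.46 in macrophages and 0.48 in microglia. Ccl12 differed by 0.56 (adjusted p = 0.295) and Tgfb1, an anti-inflammatory cytokine, by 0.55 (adjusted p = 0.166), each higher in all 3 cell types. Il1r2, Tnf and Cxcl2 below were picked out after their values were seen. Il1r2, the decoy receptor of interleukin-1, differed by -1.11 over the 3 cell types (SE 0.35, adjusted p = 0.166), with -0.98 in neutrophils, -1.16 in macrophages and -1.18 in microglia. Il1r2 is also 1 of the 19 neutrophil markers. Their median difference was -1.01 in neutrophils, -0.14 in macrophages and 0.42 in microglia. On the KO neutrophil arrays Il1r2 read 16.10, 16.69, 16.37, 16.16 and 16.42, all below the WT neutrophil arrays at 17.18, 17.36, 17.40 and 17.37. In microglia KO arrays ran from 5.38 through 5.43 to 6.23, and WT arrays from 5.59 through 6.15 to 10.91, where the highest value is that of WT microglia 5 alone. Over the 3 cell types, leaving out 1 array moved Il1r2 between -1.22 and -0.79.

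Tnf, the gene of the cytokine tumour necrosis factor, differed by -0.99 (SE 0.36, adjusted p = 0.219), with -1.29, -1.22 and -0.63 in neutrophils, macrophages and microglia. Its KO neutrophil arrays read 11.31, 12.45, 12.49, 14.50 and 12.12, against 12.93, 14.94, 13.93 and 13.65 on the WT neutrophil arrays, so the groups overlapped. Cxcl2, a neutrophil-attracting chemokine, differed by -0.94 (SE 0.42, adjusted p = 0.327), with -0.49, -0.63 and -1.47. The difference of Cxcl2 was largest in microglia.

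Of the clusters whose arrays did not overlap in neutrophils and macrophages, Ccdc43 and Zfand5 had the next smallest p after Alg12 and Pgam1. Ccdc43 had 0.68 over the 3 cell types (adjusted p = 0.0675), with 1.10, 0.87 and 0.25. Zfand5, an activator of the proteasome, had -0.47 (adjusted p = 0.0675), with -0.62, -0.60 and -0.28.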
